A study of Mus musculus with 4 samples.

Results

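The collagen chains outside the basement membrane were taken as every gene row with a collagen chain symbol (Col, a number, a, a number), leaving out Col4a1 to Col4a6, Col15a1 and Col18a1. The rule found 35 of 16305 gene rows, and 8 basement membrane chains were left out. The samples were 4 plates of 384 wells, 1 plate for each of 4 tumours, into which single cancer-associated fibroblasts (CAFs) had been sorted for SORT-seq, in which each mRNA molecule is counted by a random tag (unique molecular identifier, UMI). The APTKA tumours had been grown orthotopically in the colon of female C57BL6J mice, and none was treated; the labels do not spell out APTKA, name the surface markers of the sort, or say whether each tumour came from a separate mouse. There was therefore 1 group with 4 replicates, and each comparison was made between groups of wells from the same tumours. The p-values of the group tests measure how far differences between groups scatter from tumour to tumour, not the spread between the 4 plates.

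Collagens are built from polypeptide chains wound into a helix, and each chain has its own gene. Types I, III and V make the fibrils that carry load in connective tissue; type VI makes beaded filaments around cells; types XII, XIV and XVI bind along fibrils; type VII anchors epithelium to the stroma below it; types VIII and X form networks. Activated fibroblasts are known as a main source of fibrillar collagen in tumours.

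The plates of tumours 1 to 4 held 612734, 3165550, 2805112 and 2727191 transcripts. A minimum of 1000 transcripts and a mitochondrial share of no more than 30% left 43, 250, 243 and 204 wells, which is 740 of 1536. Spike-in RNA was 44.0% of the transcripts of plate 1 and 5.54 to 8.59% of the others, and the deposited names give plate 1 another sequencing run, so that tumour 1 and its run cannot be told apart. The labelled cell type was checked by markers: 609 wells carried at least 3 of 9 fibroblast markers and did not score for another cell type. In the fibroblast groups the proteoglycan gene Dcn stood between 40.1 and 146 transcripts per 10000, whereas Ptprc, Epcam and Pecam1, which mark leukocytes, epithelium and endothelium, did not exceed 0.0219. All of these genes belong to the lists that set the groups. Their levels therefore follow in part from the rule and are no separate check. The other kept wells were smooth muscle-like (36 wells), pericyte-like (24), Cajal-like (16) or red-cell-like (35), or too few or too unclear to use. Fibroblast-like wells were split by marker lists that hold no collagen chain: contractile (54 wells), inflammatory (69), wound-type (42, set by Mmp13, Mmp10, Mmp3, Inhba, Tnc and Spp1), progenitor-type (89), telocyte-type (54), cycling (18) and the remaining 283. These groups are ranges of a marker score rather than cell types, and 86 wells lay within 0.2 of the score limit.

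The sequences just upstream of 5 chains are given because these chains lead the results: Col1a2 and Col3a1 were the most abundant, and Col7a1, Col8a1 and Col10a1 were among the most unequal between cell groups or wells. Each line holds the 250 bases before the transcription start, 5′ to 3′ in the direction of the gene, from RefSeq on GRCm38.p6. In the order printed, they lie at chr6:4505368-4505617 (plus strand), chr1:45311288-45311537 (plus), chr9:108953336-108953585 (plus), chr16:57754738-57754987 (minus) and chr10:34389731-34389980 (plus). Capitals mark the motifs TATAAA (the TATA box), CCAAT (the CCAAT box) and GGGCGG (the GC box) on either strand.
Col1a2: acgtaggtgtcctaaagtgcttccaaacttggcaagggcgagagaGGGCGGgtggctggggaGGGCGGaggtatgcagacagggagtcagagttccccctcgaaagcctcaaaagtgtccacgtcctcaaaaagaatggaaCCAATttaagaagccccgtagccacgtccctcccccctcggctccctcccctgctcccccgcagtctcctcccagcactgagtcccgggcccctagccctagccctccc
Col3a1: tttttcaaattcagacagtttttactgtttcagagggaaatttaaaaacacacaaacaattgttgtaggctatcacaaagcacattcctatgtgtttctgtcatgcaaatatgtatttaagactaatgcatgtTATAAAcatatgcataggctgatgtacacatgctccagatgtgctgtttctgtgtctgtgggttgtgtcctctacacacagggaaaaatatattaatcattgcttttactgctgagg
Col7a1: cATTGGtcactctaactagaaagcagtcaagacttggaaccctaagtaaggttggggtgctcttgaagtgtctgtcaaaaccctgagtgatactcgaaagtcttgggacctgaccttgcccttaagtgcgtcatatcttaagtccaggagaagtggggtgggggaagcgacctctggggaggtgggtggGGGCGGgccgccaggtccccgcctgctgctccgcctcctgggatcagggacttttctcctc
Col8a1: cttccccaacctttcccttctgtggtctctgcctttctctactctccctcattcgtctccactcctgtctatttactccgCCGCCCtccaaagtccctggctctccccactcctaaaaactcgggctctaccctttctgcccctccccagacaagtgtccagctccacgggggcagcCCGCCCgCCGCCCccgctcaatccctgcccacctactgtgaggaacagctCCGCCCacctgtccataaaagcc
Col10a1: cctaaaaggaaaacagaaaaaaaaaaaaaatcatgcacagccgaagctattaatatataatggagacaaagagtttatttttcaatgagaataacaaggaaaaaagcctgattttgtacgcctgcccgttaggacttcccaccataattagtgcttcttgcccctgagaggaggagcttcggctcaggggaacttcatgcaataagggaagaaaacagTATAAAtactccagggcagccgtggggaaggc

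The upstream stretch of Col10a1 held TATAAA with its first base 32 bases before the start, and that of Col3a1 held it at 117 bases. That of Col1a2 held CCAAT at 109 bases and GGGCGG at 205 and 188 bases. That of Col8a1 held GGGCGG only on the reverse strand, at 170, 73, 66 and 23 bases. That of Col7a1 held GGGCGG at 61 bases and CCAAT on the reverse strand at 249 bases. Over all 32851 such stretches, 12.4% held TATAAA, 33.8% CCAAT and 32.7% GGGCGG on at least 1 strand; TGANTCA, also searched on both strands, was in 6.75% of all and in none of the 5. No searched motif contains another, and a match describes letters only. Of the 35 chains, 27 had an entry.

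Collagen I and III chains made up most of the collagen transcripts of the fibroblast-like wells in every tumour. Together the 35 chains stood at 375, 549, 489 and 532 transcripts per 10000 in tumours 1 to 4. Their mean was 486 ± 78.1 (SD, n = 4), or 4.86% of all transcripts. Single wells of tumours 2 to 4 ranged from 26.3 to 1763 per 10000, with medians of 380, 387 and 390. The 3 major fibrillar chains made up 77.6 ± 5.13% of that sum and the type VI chains 13.0 ± 5.47%. Type VI took its largest share, 20.5%, in tumour 1, and 8.17 to 13.6% in the others. SORT-seq counts the 3′ end of each mRNA once, so levels of different genes were compared without division by length; genes may still differ in how well they are captured.

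Col3a1, the single chain of collagen III, was the most abundant, with 125, 174, 152 and 170 transcripts per 10000 in tumours 1 to 4 (155 ± 22.6). Col1a2, the second chain of collagen I, stood at 94.6, 147, 123 and 138 (126 ± 22.8). Col1a1, the more numerous chain of the collagen I helix, stood at 46.4, 131, 100.1 and 121 (99.5 ± 37.6). Tumour 1 was lowest for all 3, and for Col1a1 it lay below the other tumours by more than they differed among themselves. The type VI chains Col6a2 (26.2 ± 8.25) and Col6a1 (22.4 ± 5.66) followed, and both were highest in tumour 1. Col5a2 (13.8 ± 2.0), Col5a1 (12.2 ± 1.18) and Col6a3 (11.2 ± 3.22) came next, within each other's spread. Col12a1 (4.23 ± 1.54), Col8a1 (4.22 ± 2.12) and Col14a1 (3.26 ± 1.27) did not differ beyond their spread either, and neither did Col5a3 (2.08 ± 0.646), Col16a1 (1.85 ± 0.495), Col27a1 (1.69 ± 0.585) and Col7a1 (1.25 ± 0.814). All of these were read in every tumour.

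**Figure D1:**
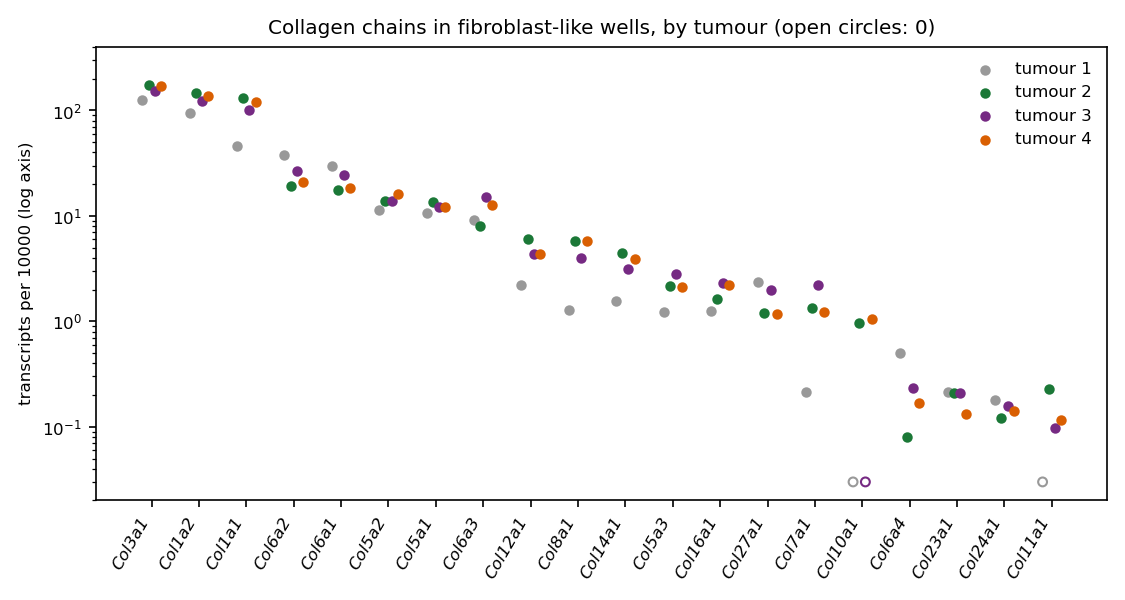
Level of each of the 20 chains with at least 100 transcripts in the fibroblast-like wells, on a log axis in transcripts per 10000; each point is a tumour, and open circles at the bottom stand for 0. Col3a1 leads at 125 to 174, and Col10a1 is at 0 in tumours 1 and 3.

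The other chains of this set were rare. Col10a1 (0.501 ± 0.579), Col6a4 (0.247 ± 0.182), Col23a1 (0.192 ± 0.0396), Col24a1 (0.150 ± 0.0247) and Col11a1 (0.110 ± 0.0927) each had at least 100 transcripts over the kept wells. The 15 remaining chains had fewer, 8 of them fewer than 10, so that differences between groups were not detectable for them at this depth. Among these were Col2a1 and Col19a1, with 1 transcript each, and Col9a3, which has 4 and overlaps Tcfl5 on the other strand. By tumour, 23, 30, 33 and 29 of the 35 rows were present, and 21 in all 4.

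The abundant chains were read in nearly all wells, and the selective ones in a minority. Col3a1 had a transcript in 609 of 609 fibroblast-like wells, Col5a1 in 573, Col12a1 in 390, Col14a1 in 310, Col8a1 in 273 and Col7a1 in 108. In the 35 red-cell-like wells, which should make no collagen and were shallower (median 2748 transcripts, against 9227, 9175 and 11273 in fibroblast-like wells of tumours 2 to 4), Col3a1 was read in 33 and Col1a2 in 34. Col12a1 was read in 9 of these wells, Col14a1 in 2, and Col7a1 and Col8a1 in 0, which allows a share of up to 8.57%. The whole set stood at 59.9 per 10000 in red-cell-like wells, where the red-cell markers alone made up 7259 per 10000. That level is therefore not comparable with the levels of other groups. Col6a2 was read in 32 of the 33 red-cell-like wells of tumours 2 to 4. For Col1a1, Col1a2, Col3a1 and Col6a2 the share of wells is therefore read as background, and only levels are compared. The floor covers counting error only.

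Across single fibroblast-like wells, the levels of the collagen I and III chains, and those of Col6a1 and Col6a2, had the closest correlations described here. The median Spearman correlation over tumours 2 to 4 (214, 203 and 161 wells) was 0.82 for Col1a1 with Col1a2, 0.75 for Col6a1 with Col6a2, 0.74 for Col3a1 with Col1a2 and 0.73 for Col3a1 with Col1a1. Col5a1 and Col5a2 reached 0.54. Col6a3, the third of the common type VI chains, correlated less with Col6a1 (0.46) and Col6a2 (0.48). Col14a1 ran weakly against Col7a1 (-0.20), Col27a1 (-0.19), Col6a1 (-0.14) and Col12a1 (-0.12), and had 0.43 with Col3a1. These are descriptions of wells that share plate and depth: the correlation of a chain's level with a well's depth was 0.41 for Col5a1, 0.35 for Col14a1, 0.34 for Col3a1 and -0.07 for Col6a1.

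**Figure D2:**
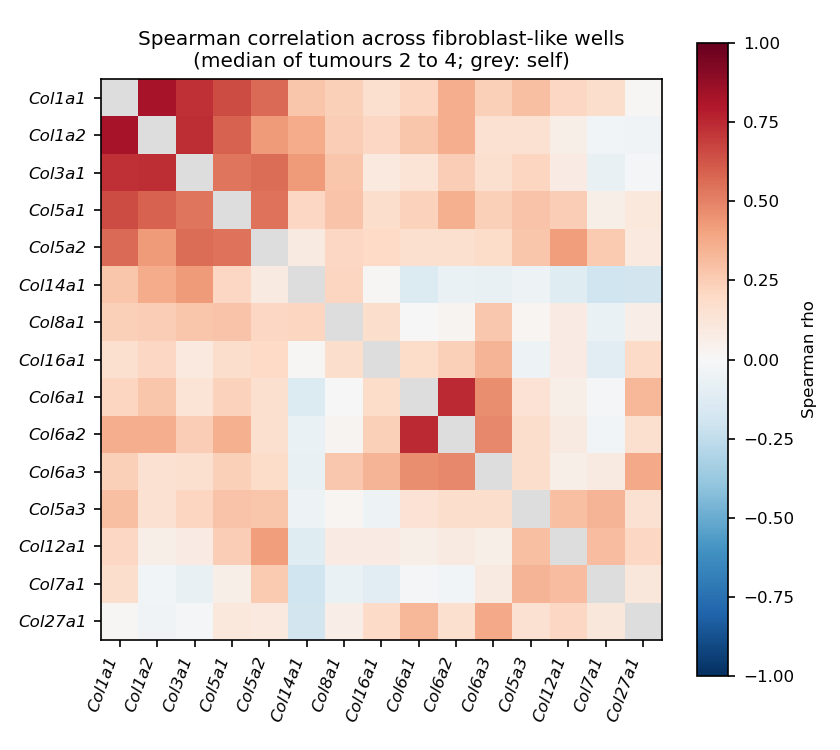
Spearman correlation (colour, from -1 to 1) of levels per 10000 across fibroblast-like wells for the 15 chains with at least 1000 transcripts, as the median of tumours 2, 3 and 4. Types I, III and V form 1 red block and type VI another, and the row of Col14a1 is blue against Col7a1 (-0.20).

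Groups of wells were compared on transcripts summed per tumour and group, with the tumour as a block and the mean of the other fibroblast groups, each weighted equally, as reference; 21 of the 35 chains had enough counts to be tested, with 7928 genes tested in all. All fibroblast contrasts share these reference groups, and a fold change is against their mean, not against the remaining fibroblasts alone.

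Wound-type fibroblasts carried far more Col7a1 and Col12a1 than the other fibroblasts, and less Col14a1, Col1a2 and Col3a1. Of the 21 tested chains, 6 rose and 4 fell, where 10.1% of all tested genes were called (5.03% higher and 5.08% lower); the median log2 fold change was 0.33 for the chains and -0.04 for all genes. Col7a1, which forms the anchoring fibrils beneath epithelia, stood at 14.1, 26.4 and 9.91 transcripts per 10000 in tumours 2, 3 and 4. No other group in any tumour exceeded 2.90, so the values did not overlap. Its log2 fold change was 5.84 (SE 0.41, edgeR adjusted p = 3.14e-09). A transcript of Col7a1 was read in 34 of 40 wound-type wells (median depth of the group 11394) and in 24 of 283 remaining fibroblasts (7235).

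Col12a1, which binds along fibrils, stood at 13.6, 15.1 and 15.4 in wound-type wells of tumours 2 to 4 and at 2.25 to 4.30 in the remaining fibroblasts. Contractile fibroblasts of tumour 2 also reached 15.4, so the groups overlapped there. The log2 fold change was 1.74 (SE 0.22, edgeR adjusted p = 8.98e-06). Col5a3, a minor type V chain, stood at 5.69, 6.62 and 5.82 (log2 fold change 1.34, adjusted p = 0.00177), and only the telocyte-type wells of tumour 3 (5.79) overlapped it among fibroblasts. Col5a2, another type V chain, stood at 22.2, 27.4 and 21.0 (0.60, adjusted p = 0.0116) and overlapped the contractile wells (21.0, 16.4 and 22.2). The fibrillar chain Col27a1 rose by a log2 fold change of 0.83 (edgeR adjusted p = 0.0221), and the type VI chain Col6a4 by 2.31 (adjusted p = 0.0444) on 17 transcripts. Col27a1 stood at 1.91, 2.89 and 2.14. Telocyte-type wells of tumours 2 and 3 (2.60 and 3.37) and contractile wells of tumour 3 (3.05) had more of it. The calls of Col27a1 and Col6a4 held in 9 and 5 of 14 alternative settings.

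Col14a1, the fibril-binding chain most related in role to Col12a1, had 5 transcripts in 40 wound-type wells: 0.201, 0.0555 and 0 per 10000, against 3.41, 2.62 and 3.24 in the remaining fibroblasts of the same tumours. Only the cycling wells of tumour 4 (0.160) were as low among fibroblasts. Its fitted log2 fold change was -5.11 (SE 0.50, adjusted p = 3.61e-07), a value that rests on few counts. Col1a2 stood at 103, 63.9 and 51.6, below every other fibroblast group of tumours 2 to 4 (109 to 186), and fell by 1.06 on the log2 scale (SE 0.14, adjusted p = 2.24e-05). Col3a1 stood at 90.1, 102 and 88.7, again below the others (126 to 257), and fell by 0.90 (SE 0.13, adjusted p = 5.77e-05). Col8a1, a chain of short-chain networks, stood at 2.12, 0.111 and 0.282 and fell by 2.44 (adjusted p = 0.00599), a call lost without tumour 4. Col1a1 had a log2 fold change of -0.03 (SE 0.17, adjusted p = 0.974).

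The 2 chains of collagen I stood in different proportion in this group. The ratio of Col1a1 to Col1a2 transcripts was 1.27, 2.30 and 1.47 in wound-type wells of tumours 2 to 4 (1.68 ± 0.545, SD, n = 3), against 0.729 ± 0.158 (n = 4) in the remaining fibroblasts. It was 0.981 in contractile, 0.881 in inflammatory, 0.711 in progenitor-type and 0.640 in telocyte-type wells. Only pericyte-like wells (1.37 ± 0.106, n = 3) came near the wound-type value. The wound-type ratio was above that of the remaining fibroblasts in 3 of 3 tumours, by 1.02 on the log2 scale; an exact two-sided permutation test over tumours gave p = 0.25, the smallest that 3 tumours allow, so the design cannot reach 0.05 for this ratio. Contractile (0.29) and inflammatory wells (0.14) were also above the remaining fibroblasts in 3 of 3 tumours and telocyte-type wells below them in 3 of 3 (-0.33), each with the same exact permutation p of 0.25.

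**Figure D3:**
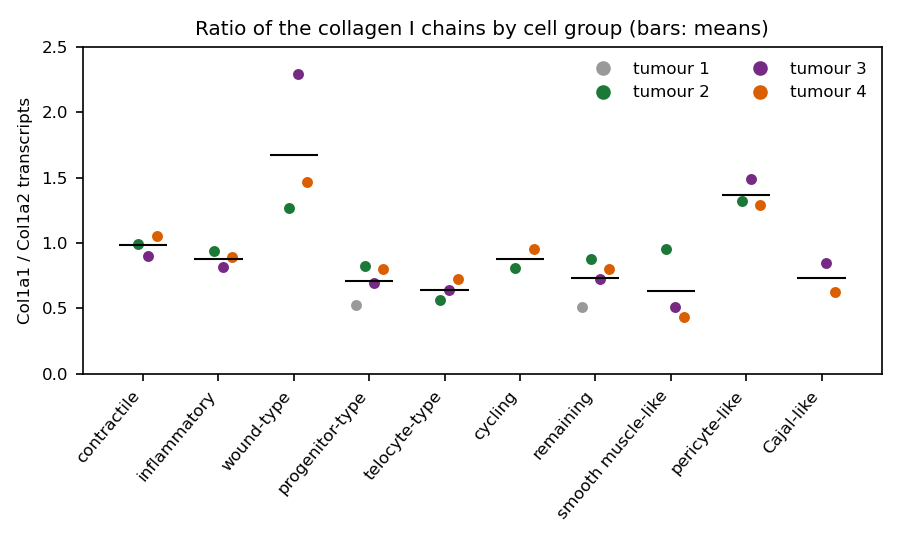
Ratio of Col1a1 to Col1a2 transcripts by cell group; points are tumours with at least 5 wells of the group and bars are means. The wound-type points (1.27 to 2.30) and pericyte-like points (1.29 to 1.49) lie above those of the other groups.

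Of 33 genes for collagen modification, cleavage and cross-linking, 25 were tested in this contrast: P4ha1, a subunit of prolyl hydroxylase, rose (log2 fold change 0.85, adjusted p = 0.0116), while Pcolce (-0.91, adjusted p = 0.00162) and Pcolce2 (-2.60, adjusted p = 0.0202), enhancers of procollagen C-propeptide cleavage, fell. Of 10 collagen receptor genes, 7 were tested, and the integrin genes Itga1 (4.04, adjusted p = 3.49e-09) and Itgb1 (0.50, adjusted p = 0.0311), which pair as a collagen receptor, rose. Itga1 stood at 3.83 ± 0.861 transcripts per 10000 in wound-type wells and 0.214 ± 0.141 in the remaining fibroblasts. The 9 fibroblast markers summed to 96.2 per 10000 in wound-type wells and 246 in the remaining fibroblasts, smooth muscle markers to 2.70 and 2.40, and pericyte markers to 3.73 in wound-type wells; the part of this difference in the collagen values was not tested.

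In progenitor-type fibroblasts Col14a1 and Col3a1 were higher, and Col12a1, Col7a1, Col27a1 and Col6a3 lower, than the mean of the other fibroblast groups. Among the tested chains 2 rose and 4 fell, where 6.89% of all genes were called (4.89% higher and 1.99% lower); the median was -0.80 for the chains and 0.04 for all genes. Col14a1 stood at 2.64, 7.91, 7.94 and 8.32 transcripts per 10000 in tumours 1 to 4. In tumours 2 to 4 this was above every other group; in tumour 1, with 5 wells, the remaining fibroblasts had 2.97. The log2 fold change was 2.64 (SE 0.23, edgeR adjusted p = 1.34e-07), and 71 of 89 wells had a transcript, against 137 of 283 remaining fibroblasts, which were shallower (median 7235 against 16023 transcripts).

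Col12a1 stood at 1.22, 1.22, 1.90 and 2.22 in progenitor-type wells and fell by 1.67 on the log2 scale (SE 0.27, adjusted p = 3.35e-04). In tumours 2 to 4 the only fibroblasts as low were the cycling wells of tumour 4 (2.01). The remaining fibroblasts had 2.33, 4.30, 2.41 and 2.25 in tumours 1 to 4, so the gap was very small in tumour 4. Their mean of 2.82 ± 0.985 overlapped the 1.64 ± 0.504 of progenitor-type wells. For Col12a1 the reference mean holds the high wound-type (14.7) and contractile (9.32) wells. Col7a1 fell by 3.17 (adjusted p = 0.00996) against the group mean, but its level of 0.154 ± 0.169 (n = 4) did not differ beyond the spread from the 0.114 ± 0.122 of the remaining fibroblasts; the reference mean holds the high wound-type value. Col27a1 fell by 1.24 (adjusted p = 0.00284) and Col6a3 by 0.89 (adjusted p = 0.0152); Col6a3 was below the remaining fibroblasts in tumours 2 to 4 but above them in tumour 1 (6.31 against 3.39). Col3a1 rose by 0.50 (SE 0.12, adjusted p = 0.00866), with 123, 211, 170 and 214 per 10000, against 257, 208 and 214 in the inflammatory wells of tumours 2 to 4. Without tumour 4, 3 of the 6 calls were left.

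In the same wells, 6 of 25 tested processing genes rose and 1 fell. Pcolce2 rose most (3.40, adjusted p = 1.24e-07). It stood at 2.09 ± 0.624 per 10000, against 0.686 ± 0.188 in the remaining fibroblasts and between 0.0486 and 0.0650 in the contractile, wound-type and telocyte-type wells, which the reference mean also holds. It was followed by P4ha3, a prolyl hydroxylase subunit (1.41, adjusted p = 0.0055), and Adamts2, a procollagen N-proteinase (1.24, adjusted p = 3.24e-04). P4ha1 fell by 1.06 (adjusted p = 0.00552). Of the receptors, Ddr2, a tyrosine kinase bound by fibrillar collagen, rose (1.04, adjusted p = 0.00274) and Itga1 fell (-3.30, adjusted p = 0.0121). Against the remaining fibroblasts alone, P4ha1 (0.791 ± 0.333 and 0.934 ± 0.353), Ddr2 (4.07 ± 0.463 and 2.97 ± 1.38) and Itga1 (0.286 ± 0.487 and 0.214 ± 0.141) were within the spread; for Itga1 the reference mean holds the wound-type (3.83) and telocyte-type (1.53) wells.

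**Figure D4:**
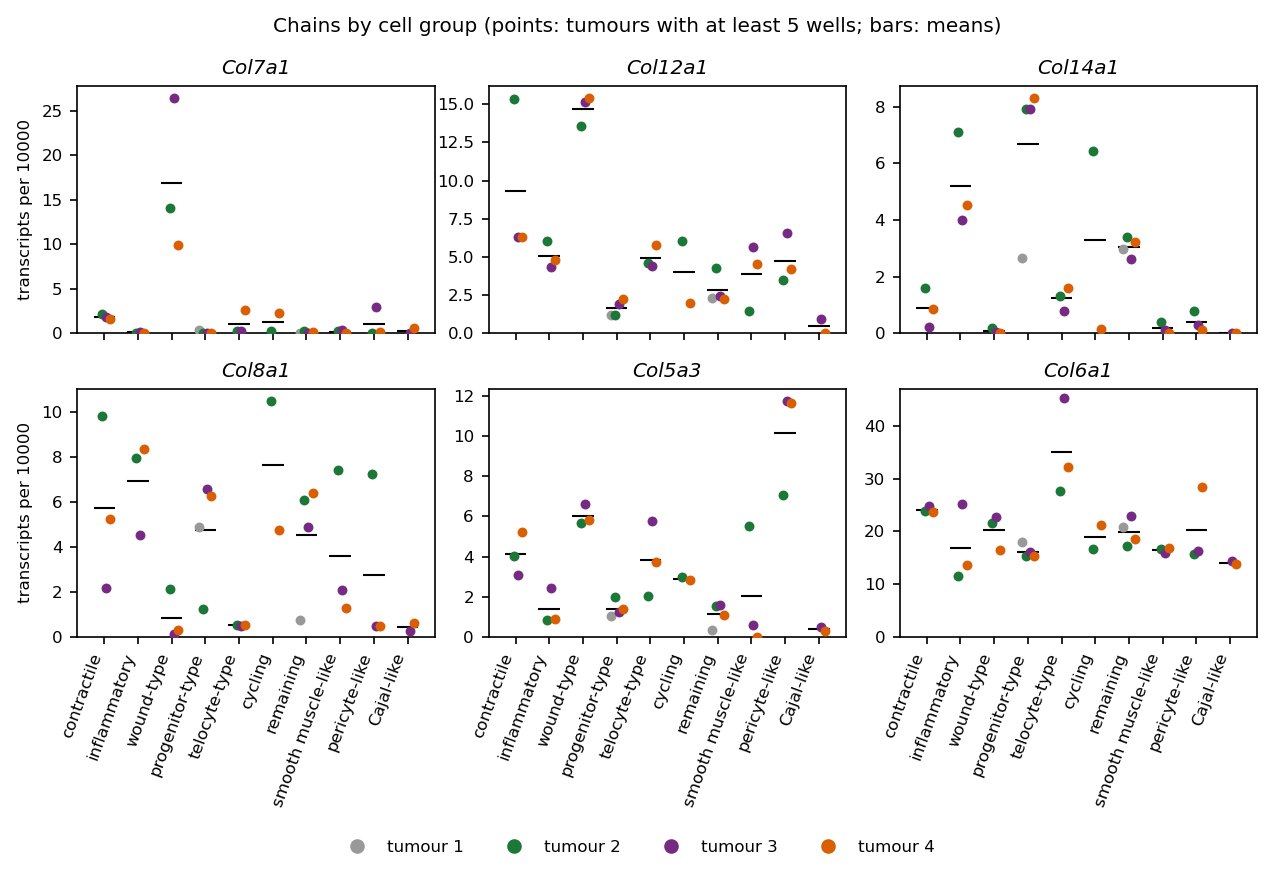
Transcripts per 10000 of 6 chains by cell group; points are tumours with at least 5 wells of the group, bars are means. Col7a1 stands apart in wound-type wells (9.91 to 26.4), Col14a1 is highest in progenitor-type wells of tumours 2 to 4 (7.91 to 8.32), and Col5a3 in pericyte-like wells.

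Telocyte-type fibroblasts carried more of the type VI chains and less Col1a1 and Col8a1. Here 5 of 21 chains rose and 2 fell, where 7.03% of all genes were called (4.82% higher and 2.21% lower); the median was -0.14 for the chains and 0.02 for all genes. Col6a1 stood at 27.6, 45.4 and 32.2 transcripts per 10000 in tumours 2 to 4 and Col6a2 at 31.0, 52.8 and 33.9. For both, all 3 values lay above every value of the other fibroblast groups in any tumour (highest 25.2 and 30.7). Their log2 fold changes were 0.70 (SE 0.15, adjusted p = 0.00603) and 0.67 (SE 0.15, adjusted p = 0.00741). Col6a3 did not pass (15.7 ± 7.98 per 10000, n = 3).

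Col6a4, a type VI chain with a restricted distribution, rose by 4.32 (SE 0.56, adjusted p = 3.39e-05): it stood at 0.951, 0.664 and 1.31, and 48 transcripts lay in 21 of 50 wells, against 28 transcripts in 20 of 283 remaining fibroblasts. The wound-type wells of tumour 3 (0.666) overlapped it, as did the smooth muscle-like wells of tumour 2 (1.23, on 6 transcripts). The fibrillar chains Col27a1 (0.95, adjusted p = 0.0117) and Col24a1 (1.67, adjusted p = 0.0426) rose as well. Col8a1 stood at 0.507, 0.487 and 0.511 and fell by 3.27 (SE 0.62, adjusted p = 0.0017). Col1a1 stood at 61.3, 70.9 and 82.3 and fell by 0.99 (SE 0.18, adjusted p = 0.00112); in tumours 2 to 4 only the wound-type wells of tumour 4 (75.8) were as low among fibroblasts. Of these 7 calls, 4 were left without tumour 2 and 3 without tumour 4.

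Of the processing genes, 1 rose and 6 fell in telocyte-type wells. Pcolce2 (-3.23, adjusted p = 0.00915), the lysyl oxidase gene Lox (-2.16, adjusted p = 0.00324), P4ha3 (-2.06, adjusted p = 0.0111) and Loxl1 (-1.40, adjusted p = 4.88e-04) fell most. Lox and Loxl1 encode enzymes that cross-link collagen and elastin. Against the remaining fibroblasts alone, Lox (0.463 ± 0.214 and 1.38 ± 0.902) and P4ha3 (0.402 ± 0.212 and 0.913 ± 0.546) had overlapping ranges of mean ± SD. Pcolce2 (0.0486 ± 0.0842 and 0.686 ± 0.188) and Loxl1 (1.97 ± 0.866 and 4.49 ± 0.792) were lower. Pcolce2 was similarly low in wound-type (0.0520) and contractile wells (0.0650). Of the receptors, Itga1 (2.39, adjusted p = 1.38e-04) and Itga11 (1.88, adjusted p = 0.013) rose, and Mrc2, an endocytic receptor for collagen, fell (-1.12, adjusted p = 0.0138).

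Inflammatory fibroblasts, the state named in the title of the series, carried more Col3a1 and Col14a1 than the mean of the other fibroblast groups. Of the 21 chains, 4 rose and 1 fell, where 3.81% of all genes were called (3.56% higher and 0.252% lower); the median was -0.05 for the chains and 0.05 for all genes. Col3a1 stood at 257, 208 and 214 transcripts per 10000 in tumours 2 to 4, overlapping the progenitor-type wells only (211, 170 and 214), and rose by 0.78 on the log2 scale (SE 0.12, edgeR adjusted p = 2.04e-04). All 35 chains together stood at 618 ± 34.6 (n = 3), of which the 3 major fibrillar chains were 84.5 ± 3.25%.

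Col14a1 stood at 7.13, 4.01 and 4.53 in inflammatory wells and rose by 1.90 (SE 0.24, adjusted p = 2.73e-05). The progenitor-type wells carried more of it in each of these tumours (7.91, 7.94 and 8.32). Against the summed wells of the other fibroblasts, in place of the equally weighted groups, its log2 fold change was 0.62 (adjusted p = 0.124). Col1a2 rose by 0.47 (edgeR adjusted p = 0.0392), but its mean of 158 ± 15.5 per 10000 was no higher than in contractile wells (160 ± 23.6). The network chain Col8a1 rose by 1.40 (adjusted p = 0.0467), with 7.97, 4.52 and 8.33 per 10000, where the remaining fibroblasts had 4.51 ± 2.60. Contractile (9.81) and cycling wells (10.5) of tumour 2 had more Col8a1, as had progenitor-type (6.55) and remaining fibroblasts (4.85) of tumour 3. The calls of Col1a2 and Col8a1 held in 8 and 10 of 14 settings. Col7a1 fell by 2.69 (adjusted p = 0.0463) to 0.0993 ± 0.0797, which did not differ beyond the spread from the remaining fibroblasts. Without tumour 4, 2 of the 5 calls were left, and without the tumour as a block 1.

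Pcolce2 (2.0, adjusted p = 4.75e-04), Loxl1 (0.85, adjusted p = 0.00764), Plod2, a lysyl hydroxylase (0.77, adjusted p = 0.0419), and Pcolce (0.63, adjusted p = 0.0199) rose in inflammatory wells, and no tested processing gene fell. Against the remaining fibroblasts alone, Pcolce2 (0.781 ± 0.109 and 0.686 ± 0.188), Pcolce (8.16 ± 1.89 and 7.39 ± 2.18) and Plod2 (4.08 ± 1.36 and 2.43 ± 1.37) had overlapping ranges of mean ± SD, and Loxl1 stood at 6.02 ± 0.791 against 4.49 ± 0.792. No receptor gene was called.

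Contractile fibroblasts, set by actin-binding genes typical of myofibroblasts, had higher Col7a1 and lower Col14a1 than the mean of the other fibroblast groups. These calls depended on the setting. The test called 2 of 21 chains higher and 1 lower, where 1.48% of all genes were called (0.946% higher and 0.53% lower); the median was 0.41 for the chains and 0.07 for all genes. The 35 chains together stood at 584 ± 64.6 (n = 3), a range that overlapped the inflammatory wells. Col7a1 stood at 2.15, 1.82 and 1.62, with a transcript in 14 of 53 wells. This was far below the wound-type wells of each tumour, and in tumour 4 also below telocyte-type (2.64) and cycling wells (2.33). The log2 fold change of Col7a1 was 2.13 (SE 0.46, edgeR adjusted p = 0.0198). It was 0.25 (adjusted p = 0.809) against the summed wells of the other fibroblasts, which include the wound-type wells. Col14a1 stood at 1.60, 0.206 and 0.867 and fell by 1.36 (adjusted p = 0.0399), a call that held in 6 of 14 settings. Wound-type wells had less Col14a1 in each tumour (0.201, 0.0555 and 0), as had telocyte-type wells of tumour 2 (1.33) and cycling wells of tumour 4 (0.160). Col12a1 (0.86, adjusted p = 0.0583) did not pass. Loxl3, a lysyl oxidase, was the only processing gene called (1.56, adjusted p = 0.0212). Without tumour 2, 0 of the 21 chains were called, and without tumour 4, 1.

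The call for Col10a1 came from few wells. This chain, known from the growth plate of bone, had 538 transcripts in 28 of 740 wells, and 3 wells held 500 of them. A contractile well of tumour 4 held 244 (135 per 10000), a remaining fibroblast of tumour 2 held 243 (52.8 per 10000) and a wound-type well of tumour 2 held 13. Contractile wells stood at 0.285, 0 and 9.77 in tumours 2 to 4, so the log2 fold change of 5.88 (SE 1.24, edgeR adjusted p = 0.0268) rested on 1 well; without tumour 4 it was 0.81 (adjusted p = 0.792). Col10a1 lies within Nt5dc1, a gene on the other strand, and whether the counting used strand is not given in the sources used here. Nt5dc1 had 0 transcripts in the 3 wells.

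Cycling fibroblasts had at least 10 wells in tumour 2 only, and the fit took their spread from the other groups. Of the 21 chains 1 rose, where 0.643% of all genes were called (0.605% higher and 0.0378% lower), and 4 had an unadjusted p under 0.05. It was Col14a1 (1.82, SE 0.38, adjusted p = 0.0234), at 6.46 in tumour 2 and 0.160 in tumour 4. With sums of at least 5 wells, 0 of 20 tested chains were called by edgeR, where 2.97% of all genes were called.

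**Figure D5:**
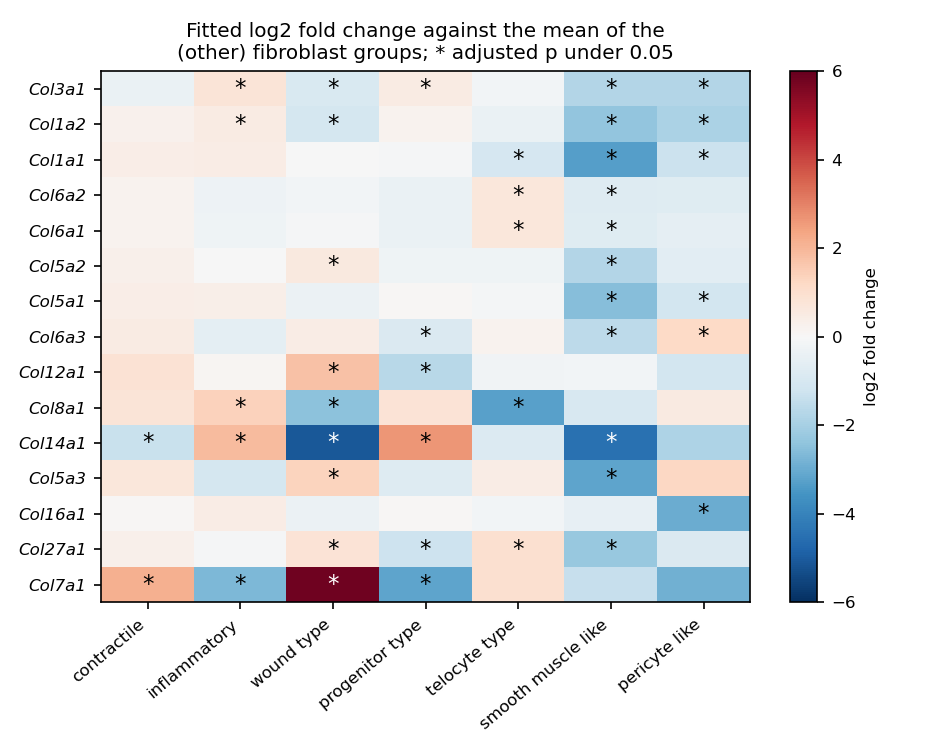
Fitted log2 fold change (colour) of the 15 chains with at least 1000 transcripts in 7 contrasts, each against the equally weighted mean of the other fibroblast groups (for the last 2, of all fibroblast groups); stars mark an adjusted p under 0.05. Col7a1 in wound-type wells (5.84) is the darkest red cell, and the smooth muscle-like column is blue throughout.

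Smooth muscle-like wells carried much less fibrillar collagen than fibroblasts. The test called 0 of 21 chains higher and 11 lower, where 8.27% of all genes were called (3.82% higher and 4.45% lower); the median was -1.78 for the chains and -0.20 for all genes. Col1a1 stood at 36.9, 13.1 and 15.1 transcripts per 10000 in tumours 2 to 4, below all fibroblast groups of those tumours (61.3 to 178), and fell by 3.32 on the log2 scale (SE 0.27, edgeR adjusted p = 3.00e-08). Col1a2 stood at 38.8, 25.8 and 34.7 (-2.37, adjusted p = 4.45e-08) and Col3a1 at 56.7, 53.7 and 61.1 (-1.75, adjusted p = 5.14e-07). Neither overlapped a fibroblast group of any tumour. Only tumours 3 and 4 had the 10 wells needed for the test.

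The type V chains Col5a1 (-2.54, adjusted p = 1.20e-06), Col5a2 (-1.78, adjusted p = 3.39e-05) and Col5a3 (-3.19, adjusted p = 0.00492) fell with them, as did Col14a1 (-4.47), Col27a1 (-2.28) and Col6a3 (-1.55). The fold of Col14a1 rested on 1 and 0 transcripts in the tested tumours, and with wells of at least 2000 transcripts it was -3.44 (adjusted p = 0.107). Col6a3 stood at 15.2, 7.58 and 4.02, and in tumour 2, which did not enter the test, it was above every fibroblast group of that tumour (4.28 to 13.6); with sums of at least 5 wells, which brought tumour 2 in, its change was -0.64 (adjusted p = 0.24). Col5a3 stood at 5.54, 0.573 and 0, so tumour 2 was not low for it either; with these smaller sums the change was -0.77 (adjusted p = 0.399). Of the called chains, the type VI chains Col6a1 and Col6a2 changed least. Col6a1 stood at 16.6, 15.8 and 16.8 (-0.73, adjusted p = 0.0367) and Col6a2 at 18.3, 21.4 and 14.3 (-0.79, adjusted p = 0.021). Both were within the range of the fibroblast groups taken over all tumours. Within a tumour, Col6a1 of tumour 3 was just below the lowest fibroblast group (16.02), and Col6a2 of tumour 4 was below the lowest there (16.04). Type VI made up 25.0 ± 3.32% of the collagen transcripts here (n = 3), of a sum of 177 ± 29.6 per 10000.

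Of 25 tested processing genes 0 rose and 11 fell in smooth muscle-like wells, with Ppib (-2.64), a prolyl isomerase of the procollagen complex, Fkbp14 (-2.36), Pcolce (-2.19) and Loxl1 (-2.18) the largest. Ppib and Fkbp14 were rare: over tumours 2 to 4 Ppib stood at 0.418 ± 0.538 per 10000, within the spread of the remaining fibroblasts (0.670 ± 0.335), and Fkbp14 at 0.327 ± 0.259 against 0.765 ± 0.0286. With sums of at least 5 wells neither passed (-1.23, adjusted p = 0.0845, and -1.55, adjusted p = 0.0607). Itga1 (2.06, adjusted p = 0.0113) and Itgb1 (1.16, adjusted p = 1.40e-04) rose and Mrc2 fell (-2.73, adjusted p = 0.0056). These wells were shallower (median 3983 transcripts) and held more mitochondrial RNA (10.02%, against 4.89 to 6.73% in the fibroblast groups); their part in the result was not tested. With wells of at least 2000 transcripts, with at most 15% mitochondrial transcripts, or without tumour 4, 5 chains were called.

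Pericyte-like wells had less Col1a2 and Col3a1 than most fibroblast groups, and high Col6a3 and Col5a3. Only tumour 2 had 10 such wells, so the test compared 1 sum, whose spread was taken from the other groups. Of the 21 chains 1 rose and 5 fell, where 3.39% of all genes were called (1.88% higher and 1.51% lower); the median was -1.12 for the chains and -0.16 for all genes. Col1a2 stood at 48.3, 47.1 and 67.5 in tumours 2 to 4 (-1.89, edgeR adjusted p = 1.53e-04) and Col3a1 at 58.8, 43.2 and 82.2 (-1.74, adjusted p = 1.53e-04). Col16a1 (-2.98), Col1a1 (-1.29) and Col5a1 (-1.12) were called lower as well. However, Col1a1 stood at 63.8, 70.1 and 87.1 in tumours 2 to 4 and overlapped the telocyte-type wells (61.3, 70.9 and 82.3). In tumour 4 the Col1a2 level was above that of the wound-type wells (51.6).

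Col6a3 stood at 22.7, 24.5 and 32.3 in pericyte-like wells, the highest group in each tumour, with a log2 fold change of 1.18 in tumour 2 (SE 0.32, adjusted p = 0.0452) and of 0.93 (adjusted p = 0.0177) with sums of at least 5 wells. The ratio of Col6a3 to Col6a1 was 1.36 ± 0.195 (n = 3), against 0.543 ± 0.278 in the remaining fibroblasts (n = 4). Col5a3 stood at 7.08, 11.8 and 11.7, above all other groups in every tumour. It had a log2 fold change of 1.22 (adjusted p = 0.178) with 10 wells per sum and of 1.74 (adjusted p = 4.73e-04) with 5, which brought in tumours 3 and 4. In that setting 2 of 20 chains rose and 8 fell, where 13.0% of all genes were called. Without the tumour as a block, 1 chain was called.

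In the pericyte-like sum of tumour 2 the test called 0 processing genes higher and 3 lower: Lox (-3.72, adjusted p = 0.0266), Loxl1 (-2.22, adjusted p = 0.0054) and Plod2 (-2.05, adjusted p = 0.0277). Itga10 (6.50, adjusted p = 0.00534), Itga1 (3.69, adjusted p = 5.61e-05) and Itgb1 (0.87, adjusted p = 0.0432), all subunits of collagen-binding integrins, were called higher in that sum. With sums of at least 5 wells, which added tumours 3 and 4, Itga1 (2.60, adjusted p = 3.07e-05), Itgb1 (1.02, adjusted p = 1.79e-05), Lox (-3.23, adjusted p = 8.38e-04), Loxl1 (-1.87, adjusted p = 1.62e-05) and Plod2 (-1.97, adjusted p = 5.57e-04) were called in the same direction, whereas Itga10, at only 0.453 ± 0.261 per 10000, did not enter that test. The smooth muscle markers summed to 15.8 per 10000 and endothelial markers to 3.12 in these wells, against 139 and 1.44 in smooth muscle-like wells; their part was not tested.

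Cajal-like wells, which resemble the pacemaker cells of gut muscle, had at least 5 wells in tumours 3 and 4 only and were not tested. All chains together stood at 181 and 139 per 10000 there, near the smooth muscle-like wells (158 and 162). These wells carried the most Col27a1 (6.39 and 4.09 per 10000) and Col16a1 (4.11 and 3.21), above every other group in each tumour. Col14a1 and Col6a4 had 0 transcripts there.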

How the data were processed

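Single cells from 4 tumours (1 group, 4 plates) were analysed. The deposited values are estimated transcript counts (expected counts) per gene and well; per the submitters' processing notes BWA and mm10 were used, with no counting program, strand setting or annotation given in the sources used here. Judged from the files, the authors' counts equal whole UMIs out of 4096 after a saturation correction, to within 0.00498. They were rounded for the tests; spike-ins were left out. All 384 well positions occur in every plate, and a chi-square of the summed UMIs came to 5.15 to 45.8 per gene for pairs of plates, so none copied another. No doublet caller was run, since a well was meant to hold 1 cell.

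Wells under 1000 transcripts or over 30% mitochondrial transcripts were left out. A well was given another cell type at a marker score of at least 2 with at least 3 markers, was fibroblast-like with at least 3 fibroblast markers, and was given a fibroblast group at a score of at least 1 with at least 2 markers. Levels are transcripts per 10000 in sums of at least 5 wells. Sums of at least 10 wells (23 sums, 11 residual degrees of freedom) were compared in 1 joint edgeR 4.0.16 quasi-likelihood fit (R 4.3.3, TMM, filterByExpr, Benjamini-Hochberg over tested genes that were not markers, threshold 0.05). The tumour was a block because the groups compared came from the same tumours. The fit was tested on simulated counts without tumour effects, with changes set in the smooth muscle-like or wound-type sums only. The contrasts that rest on 1 sum were not covered by it. Alternatives included DESeq2 1.42.0, other well limits and leaving out each tumour. Intervals and floors cover counting error only.

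Every chain with at least 100 transcripts was described, every called chain was named, and so were up to 4 called genes of the processing and receptor lists with the largest change per comparison. Members and lists were chosen with earlier results of these data known. Tables were computed with Python 3.11.15, numpy 2.4.6, pandas 2.3.3 and scipy 1.17.1.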

Additional observations from a re-analysis of the deposited data

Results flagged for a closer look

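Col23a1, a transmembrane collagen, stood at 0.133 transcripts per 10000 in the fibroblast-like wells of tumour 4, away from the 0.209 to 0.216 of the other tumours. It was 1 of 20 levels looked at in this way, and chance marks about 1 in 20.

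Wells under the limit of 1000 transcripts, which entered no comparison, also held collagen. The 683 such wells had 161067 transcripts, and the 35 chains made up 366 per 10000 of them (199, 500, 341 and 425 in tumours 1 to 4). The fibroblast-like wells held 375, 549, 489 and 532. There are no control samples for these wells. The difference between the kept and the shallow wells was not tested.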

How the results depend on the processing

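The 49 calls of a chain in a comparison gave 668 values under the alternatives: 554 stayed called in the same direction, 114 were no longer called, and 0 turned direction; 17 calls held in every alternative run. The counts of chains called moved by more than 1.5 times as follows. For smooth muscle-like wells (11 chains), 5 were called with at least 2000 transcripts and 5 with at most 15% mitochondrial transcripts. For pericyte-like wells (6), sums of at least 5 wells gave 10. For contractile fibroblasts (3), DESeq2 gave 1, no filter on low counts 9, a score of at least 0.5 gave 5, sums of at least 5 wells 1 and the two-group fit 1. For inflammatory fibroblasts (5), no filter gave 8 and the two-group fit 2. No filter gave 11 for telocyte-type (7) and 2 for cycling fibroblasts (1), where sums of at least 5 wells gave 0. For wound-type fibroblasts (10) and progenitor-type fibroblasts (6) no such setting moved the count.

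Without the replicate block, that is without pairing by tumour, pericyte-like and inflammatory wells each had 1 chain called. Leaving out 1 tumour at a time gave 5 to 11 chains for smooth muscle-like wells, 0 to 4 for contractile, 2 to 6 for inflammatory, 3 to 6 for progenitor-type, 3 to 7 for telocyte-type and 0 to 1 for cycling fibroblasts. Without tumour 4, 25 of 49 calls held. Without tumour 1, 49 of 49 did, but this run could not test the part of tumour 1. Only its remaining fibroblasts (16 wells) gave a sum, and the block of tumour 1 takes up that sum. Without Rn45s and mitochondrial transcripts, an alternative chosen after seeing the data, 47 of 49 calls held. The causes were not tested.

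The two-group fit could not be run for pericyte-like and cycling wells, which had a sum in 1 tumour, nor could the fits of these groups without tumour 2, or of cycling wells under the stricter limits. Of 20 levels, 6 moved by more than the SD with another denominator and 4 as a mean over wells.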
